A study of Xenopus tropicalis with 31 samples.

Results

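Long ectoderm-only H3K27ac domains are stretches of the *Xenopus tropicalis* genome of 30 kb or more that carry the activating histone mark H3K27ac in dissected ectoderm and meet no stretch of that length in dissected endoderm. They were taken from the regions that ROSE, a program that joins neighbouring H3K27ac peaks and ranks the joined regions by signal, gave for each germ layer at stage 10.5 (early gastrula). Of 16235 ectoderm regions on the 10 chromosomes, 1569 were at least 30 kb wide. Of these, 963 overlapped no endoderm region of that width and are the domains described here, whereas 606 did and are called domains of both germ layers. A further 528 long endoderm regions overlapped no long ectoderm region and are called endoderm-only domains.

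The study asked how the maternal transcription factors Foxi2 and Sox3 shape ectoderm, and profiled chromatin by ChIP-seq in 31 samples of 19 groups. Ectoderm (animal) and endoderm (vegetal) pieces were dissected at stage 10.5 for the coactivator P300 (Ep300), H3K27ac and the repressive mark H3K27me3. For Foxi2 and Sox3, stage 8, 9 and 10.5 embryos were used whole, so their peaks do not say in which germ layer the factor was bound. A second set of P300 samples compared FSMO tissue with wild-type (WT) tissue in both germ layers. It is called the later P300 experiment here and the other P300 samples the first, after the order of samples. The titles do not date them. FSMO embryos had received translation-blocking morpholinos against *foxi2* and *sox3*, injected into the animal side at the 1- or 2-cell stage, and no list from embryos with a control morpholino was analysed here. The labels call all embryos wild-type *X. tropicalis*. Tubes of 200 embryos were fixed together, so each sample is a pool.

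H3K27ac marks active enhancers and promoters, and P300 is one of the enzymes that deposit it. Very long clusters of acetylated enhancers, called super-enhancers (SEs), are known to lie around genes that set cell identity. H3K27me3 is placed by Polycomb repressive complexes and is common around developmental genes. In the early gastrula the ectoderm is the source of epidermis and nervous system, with BMP signalling favouring epidermis.

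Each of the 16 lists stands for 1 group, with replicates already combined by the authors where they existed, so no value below has a spread between replicates. The first P300 experiment and H3K27ac rest on 1 sample each, among the 7 groups with a single sample. Peaks of the first P300 experiment had a median fold enrichment over input of 3.54 in ectoderm and 3.79 in endoderm. In the WT lists of the later one it was 8.76 and 9.15. Intervals in brackets are Wilson 95% intervals, which cover counting error only and treat domains or peaks as independent. The lists differ in length: on the 10 chromosomes the later P300 experiment gave 3589 peaks in FSMO ectoderm against 5549 in WT ectoderm, and 11245 in FSMO endoderm against 11594 in WT endoderm. Read depth is unknown. The stage 8 Sox3 list stands apart from the later ones, since 29.8% of its peaks recurred at stage 10.5, against 93.4% of stage 9 Sox3 peaks. Stage 8 Foxi2 peaks recurred in 26.5% of cases and stage 9 Foxi2 peaks in 49.9%, so low recurrence at stage 8 was not particular to Sox3. The tissue labels were compared with the places of marker genes. Among 7 ectoderm markers, 6 lay in an ectoderm SE and none in an endoderm SE, and among 8 endoderm markers, 6 lay in an endoderm SE and none in an ectoderm SE. These SEs come from the same H3K27ac regions that chose the domains, and the markers were chosen with earlier results of these data known. The comparison is therefore not an independent check of the labels.

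The 963 domains covered 51.5 Mb, which is 30.3% of all sequence in ectoderm H3K27ac regions. Their width ran from 30014 to 212458 bp with a median of 45236 bp, against a median of 1763 bp over all ectoderm regions. Peaks up to 12 kb apart had been joined, so a domain includes gaps: it held 12 H3K27ac peaks at the median, and the peaks filled 33.8% of the summed length. By the ROSE cutoff, 602 domains (62.5%, 59.4 to 65.5) were SEs, against 81.0% (77.7 to 83.9) of the domains of both germ layers. Every chromosome held members, with 125 on Chr3 at the high end and 53 on Chr9 at the low end. The domains were chosen by the positions and widths of H3K27ac regions in the ectoderm and endoderm tables, so these values only describe that choice.

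Ectoderm-only does not mean that endoderm lacked the mark. Shorter endoderm H3K27ac regions covered 23.5% of the summed length of the domains, and 97 of the 963 domains had no endoderm H3K27ac region of any length. The width limit cut through a continuous range. Just inside it were domains of 30014 bp at *nipbl*, 30058 bp at *rassf7* and 30074 bp at *dapk3*, and just outside were regions of 29983 bp at *crhr1.2*, 29942 bp at *klhl2* and 29848 bp at *ablim1*. The *rassf7* domain held 4 ectoderm P300 peaks, and none of the other 5 regions held more than 1.

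The genes in the domains were described with 9 lists of developmental genes. Of 20 epidermal genes, 13 overlapped a long ectoderm-only domain, 4 a domain of both germ layers and none an endoderm-only domain. Over the whole annotation, 8.95% of 28773 genes overlapped a long ectoderm-only domain, and 8.45% of protein-coding genes did. Domains of both germ layers overlapped 8.92% of the annotated genes and endoderm-only domains 3.05%. The 13 were the keratin gene *krt70*, *tp63*, which maintains epidermal progenitors, the Grainyhead-like factors *grhl1* and *grhl3*, which drive epithelial differentiation, the AP-2 factors *tfap2a* and *tfap2c*, the homeobox genes *dlx3*, *dlx5*, *dlx6* and *msx1*, the Krüppel-like factors *klf5* and *klf17*, and *esrp1*, an epithelial splicing regulator. The keratin gene *krt7*, *grhl2*, *gata2* and *epcam* lay in domains of both germ layers. The epidermal genes *foxi1*, *gata3* and *cdh1* overlapped no long domain of any class. None of 22 endoderm genes overlapped a long ectoderm-only domain, while 13 of them, among them *sox17a*, *gata4*, *gata6*, *mixer*, *foxa4* and *vegt*, overlapped an endoderm-only domain. Some of these 13 share a domain, such as *mixer* and *mix1*. Acetylation in the 2 tissues chose the domains, so these counts describe the choice and are not a test of it.

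**Figure D1:**
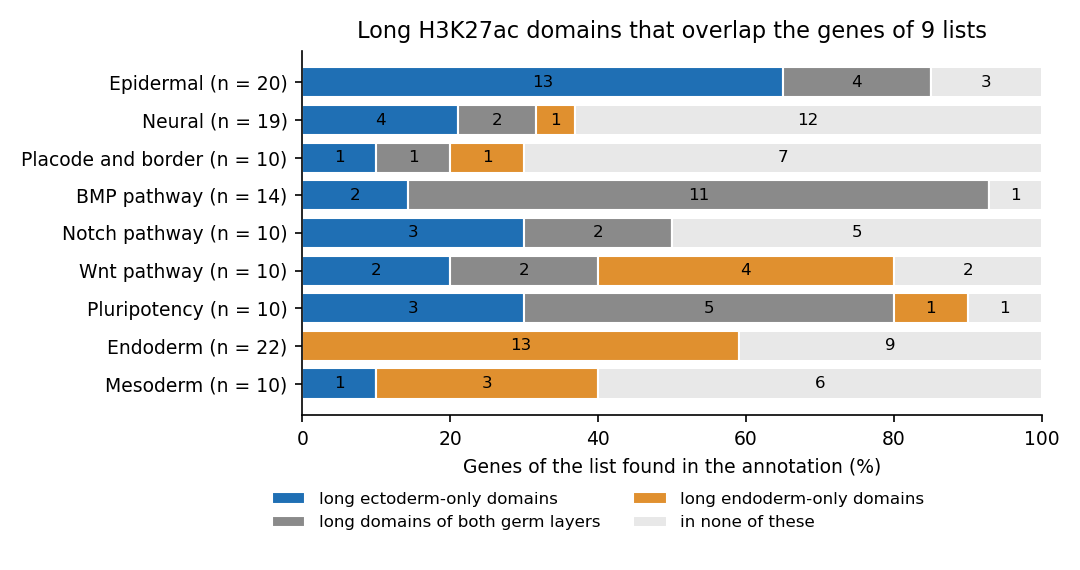
Share of the genes of 9 lists, in % of the genes found in the annotation, that overlap long ectoderm-only domains (blue), long domains of both germ layers (grey), long endoderm-only domains (orange) or none of these (pale). Numbers on the bars are genes, and genes can share a domain, as the *ventx* genes of the BMP list do. Epidermal genes fill the blue part with 13 of 20, BMP pathway genes the grey part with 11 of 14, and endoderm genes the orange part with 13 of 22.

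Signalling genes were split between the classes. Of 14 BMP pathway genes, 11 lay in domains of both germ layers, among them *bambi*, *id3* and *smad7*. The 11 include the *ventx* cluster of BMP-induced homeobox genes, whose listed members all share 1 domain. Only *bmp4*, a ligand, and *szl*, a secreted inhibitor of the proteases that cut Chordin, lay in ectoderm-only domains. Notch pathway genes in ectoderm-only domains were the ligand gene *jag1*, the glycosyltransferase gene *lfng* and *rbpj*, the DNA-binding partner of the Notch intracellular domain, 3 of 10. For the Wnt pathway they were the receptor gene *fzd8* and *ctnnb1*, which encodes beta-catenin, 2 of 10, against 4 in endoderm-only domains. Among neural genes, 4 of 19 lay in ectoderm-only domains, namely the SoxB1 genes *sox2* and *sox3*, the anterior neural homeobox gene *lhx5* and the Notch target *hes5.1*. The pluripotency list gave *lin28a*, *lin28b* and *klf2*, 3 of 10, the placode and border list *eya1*, 1 of 10, and the mesoderm list the notochord homeobox gene *not*, 1 of 10. *lhx5* spanned the gap between neighbouring domains, and *dlx5* and *dlx6* shared a domain, so the 29 genes lay in 29 domains.

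P300 was next counted in the domains, which the choice of domains did not use. In WT ectoderm, 709 of 963 domains (73.6%, 70.8 to 76.3) held at least 1 P300 peak, near the 74.4% of all 1569 long ectoderm regions. Together they held 1555 peaks, 28.0% of the WT ectoderm list, at 3.02 peaks per 100 kb. Of the domains of both germ layers, 458 (75.6%, 72.0 to 78.8) held an ectoderm P300 peak, with 1521 peaks in all. Endoderm-only domains held 1.04 ectoderm P300 peaks per 100 kb. Ectoderm regions of 15 to 30 kb held 2.29 per 100 kb, a lower density in shorter regions. In dissected tissue, fewer cells with P300 at a site and less P300 per cell cannot be told apart. Endoderm P300 ran the other way, at 1.70 peaks per 100 kb in ectoderm-only domains, 4.29 in domains of both germ layers and 5.67 in endoderm-only domains.

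**Figure D2:**
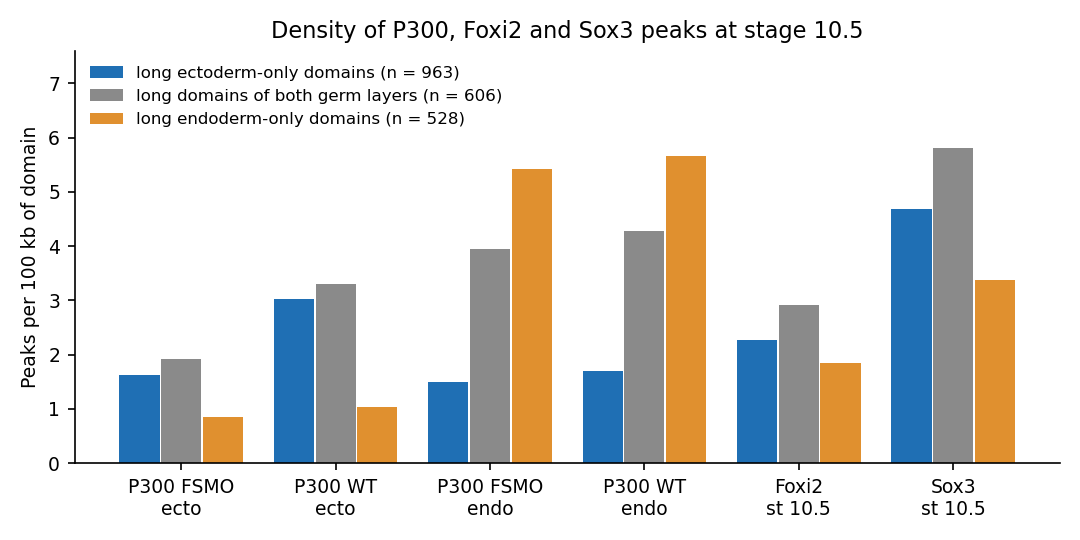
Peaks per 100 kb of domain (vertical axis, from 0) for P300 in FSMO and WT ectoderm, P300 in FSMO and WT endoderm, and Foxi2 and Sox3 at stage 10.5, in long ectoderm-only domains (blue), domains of both germ layers (grey) and endoderm-only domains (orange). WT ectoderm P300 stands at 3.02 in ectoderm-only domains and 1.04 in endoderm-only domains, and WT endoderm P300 at 1.70 and 5.67.

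Within single domains, ectoderm and endoderm P300 peaks were compared by number. More ectoderm than endoderm P300 peaks were found in 471 domains (48.9%, 45.8 to 52.1), equal numbers in 354 and fewer in 138, while 39.3% of all long ectoderm regions had more. In domains of both germ layers the share was 23.9% (20.7 to 27.5) and in endoderm-only domains 2.27% (1.30 to 3.93). The first P300 experiment gave 50.4% (47.2 to 53.5) for ectoderm-only domains. With WT ectoderm and endoderm lists of equal length the share was 63.9%. P300 was present in ectoderm and absent in endoderm in 309 domains, present in both layers in 400, present in endoderm alone in 48 and absent from both in 206. The peaks themselves differed in the same way: 28.9% (26.7 to 31.2) of ectoderm P300 peaks in the domains overlapped an endoderm P300 peak, against 42.3% of the whole ectoderm list and 59.4% (56.9 to 61.9) in domains of both germ layers.

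The amount of endoderm H3K27ac in a domain went with endoderm P300 and not visibly with ectoderm P300. The 97 domains without endoderm H3K27ac held 3.38 ectoderm and 0.865 endoderm P300 peaks per 100 kb. The 135 domains with over 50% and up to 75% of their length under endoderm H3K27ac held 3.06 ectoderm and 3.04 endoderm P300 peaks per 100 kb. In the bins between, ectoderm density stayed between 2.82 and 3.04, while endoderm density was 1.04, 1.53 and 2.13 in order of endoderm H3K27ac. The last 25 domains, with over 75% under endoderm H3K27ac, held 3.06 ectoderm and 2.47 endoderm P300 peaks per 100 kb. Across the 963 domains, which share the same lists and differ in width, the number of ectoderm P300 peaks had a Spearman coefficient of 0.45 with width, 0.59 with H3K27ac signal, 0.60 with the number of stage 10.5 Foxi2 peaks and 0.67 with that of Sox3 peaks. The 107 domains with 4 or more ectoderm P300 peaks had a median width of 76717 bp and 95.3% were SEs, whereas the 254 domains with none had a median width of 37898 bp and 28.7% were SEs.

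Foxi2 and Sox3 were counted in the domains at each stage, from lists of very different length. On the 10 chromosomes the Foxi2 lists held 13157, 6668 and 6039 peaks and the Sox3 lists 5826, 4401 and 14644 peaks at stages 8, 9 and 10.5. The part of list length in the shares was not tested. Foxi2 bound 563 domains at stage 8 (58.5%, 55.3 to 61.5), 524 at stage 9 (54.4%, 51.3 to 57.5) and 609 at stage 10.5 (63.2%, 60.1 to 66.2). Sox3 bound 180 domains at stage 8 (18.7%, 16.4 to 21.3), 494 at stage 9 (51.3%, 48.1 to 54.4) and 834 at stage 10.5 (86.6%, 84.3 to 88.6). Of all long ectoderm regions, 67% had Foxi2 and 87.6% had Sox3 at stage 10.5. In domains of both germ layers the shares at stages 8, 9 and 10.5 were 64.9%, 61.1% and 72.9% for Foxi2 and 29.7%, 63.7% and 89.3% for Sox3. In endoderm-only domains they were 50.4%, 40.2% and 46.6% for Foxi2 and 20.8%, 35.6% and 68.4% for Sox3, so a Foxi2 share lowest at stage 9 and a Sox3 share highest at stage 10.5 were not particular to ectoderm-only domains. Foxi2 was present at all 3 stages in 430 domains and at none in 251.

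**Figure D3:**
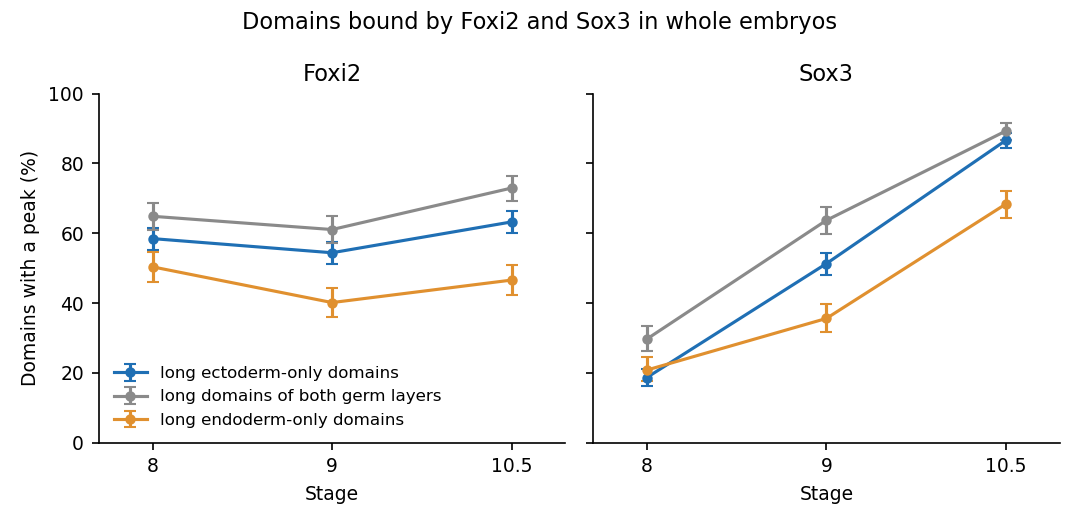
Percent of domains with at least 1 Foxi2 peak (left) or Sox3 peak (right) at stages 8, 9 and 10.5, with Wilson 95% intervals, for long ectoderm-only domains (blue), domains of both germ layers (grey) and endoderm-only domains (orange). In ectoderm-only domains the Foxi2 share lies between 54.4% and 63.2% at all stages, and the Sox3 share goes through 18.7% and 51.3% to 86.6%.

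Foxi2 sites in the domains recurred more often than Foxi2 sites at large. Of 1242 stage 8 Foxi2 peaks in the domains, 662 (53.3%, 50.5 to 56.1) overlapped a stage 10.5 Foxi2 peak, against 26.5% of all 13157. The share was 58.5% (55.7 to 61.3) in domains of both germ layers and 47.4% (43.3 to 51.5) in endoderm-only domains, so recurrence was not particular to ectoderm-only domains. Of 1167 stage 10.5 Foxi2 peaks in the domains, 72.9% (70.3 to 75.4) overlapped a WT ectoderm P300 peak, against 49.9% of the whole list and 38.1% (34.0 to 42.5) in endoderm-only domains. For Sox3 at stage 10.5 the same shares were 52.8% (50.8 to 54.8) of 2416 peaks in the domains, 30.3% of the whole list and 27.8% in endoderm-only domains. The overlap with P300 is not given here for domains of both germ layers, so these values do not show whether it was particular to ectoderm-only domains.

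P300 was more common in domains that held the factors. Both factors were found at stage 10.5 in 595 domains, of which 533 (89.6%, 86.9 to 91.8) held ectoderm P300 at 3.62 peaks per 100 kb. Sox3 without Foxi2 was found in 239 domains, of which 152 (63.6%, 57.3 to 69.4) held P300 at 2.22 per 100 kb. Foxi2 without Sox3 was found in 14 domains and P300 in 5 of those. Neither factor was found in 115 domains, of which 19 (16.5%, 10.8 to 24.4) held P300 at 0.630 per 100 kb. Domains with both factors were also wider, with a median of 49755 bp against 36780 bp for those with neither, and their H3K27ac signal was higher. The part of width and signal in the difference was not tested. The other classes had the same order: P300 was in 91.9% of domains of both germ layers with both factors, 44.4% of those with Sox3 alone and 12.3% of those with neither, and in 56.4%, 15.4% and 2.74% of endoderm-only domains. A P300 peak that overlapped both Foxi2 and Sox3, called co-bound here, occurred in 493 domains (51.2%, 48.0 to 54.3), and 52.2% of the ectoderm P300 peaks in the domains were co-bound, against 52.4% of the whole list.

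FSMO ectoderm had fewer P300 peaks in the domains than WT ectoderm, with 841 peaks in FSMO ectoderm and 1555 in WT ectoderm. The FSMO count was 54.1% of the WT count in the domains, 58.0% in domains of both germ layers, 83.0% in endoderm-only domains and 64.7% over the whole lists. Fewer FSMO than WT peaks were found in 479 domains (49.7%, 46.6 to 52.9), equal numbers in 400 and more in 84, and 50.3% of all long ectoderm regions had fewer. Many of the 400 had no peak in either list, since 254 domains had none in WT ectoderm. Of the 709 domains with P300 in WT ectoderm, 259 (36.5%, 33.1 to 40.1) had no P300 peak left in FSMO ectoderm, against 119 of 458 such domains of both germ layers (interval 22.2% to 30.2%) and 56 of 153 such endoderm-only domains (36.6%, 29.4 to 44.5). The classes differ in the number of WT ectoderm peaks per such domain, which was highest in domains of both germ layers. The part of peak number in these shares was not tested. Of the WT ectoderm peaks in the domains, 669 (43.0%, 40.6 to 45.5) overlapped an FSMO peak and are called kept, against 44.1% of the whole list, where 55.9% were not kept. The whole list includes the peaks in the domains, and the difference was not tested. With FSMO and WT lists of equal length the kept share was 49.6% in the domains and 52.4% in the whole list. FSMO peaks without a WT counterpart were less common in the domains than in the whole list. Of the 841 FSMO ectoderm peaks in the domains, 668 (79.4%, 76.6 to 82.0) overlapped a WT peak, whereas 32% of all FSMO ectoderm peaks overlapped none. In endoderm-only domains 61.1% (54.7 to 67.2) overlapped a WT peak. The share is not given here for domains of both germ layers, so these values do not show whether it was particular to ectoderm-only domains.

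**Figure D4:**
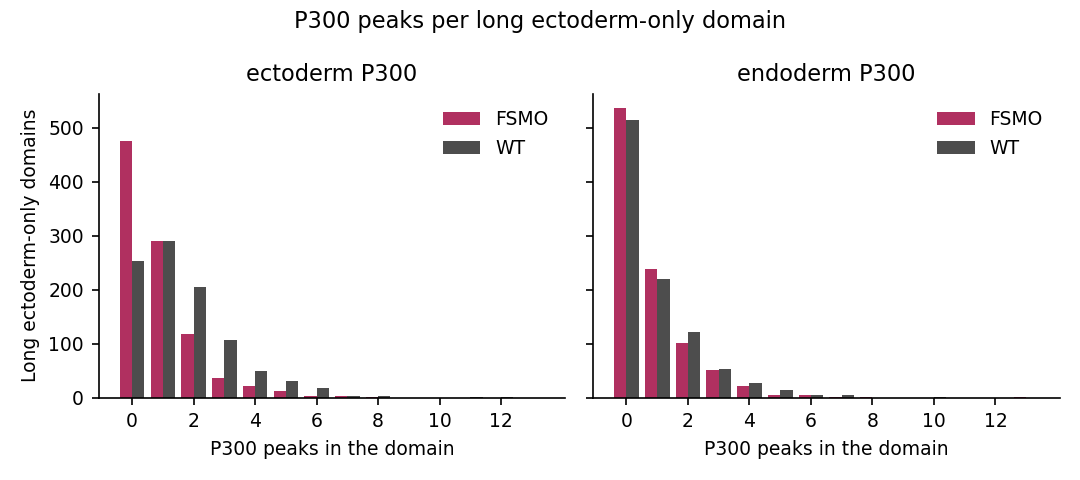
Number of long ectoderm-only domains (vertical axis) with a given number of P300 peaks (horizontal axis) in FSMO (red) and WT (grey) ectoderm on the left and endoderm on the right. Domains without ectoderm P300 number 475 in FSMO and 254 in WT, while those without endoderm P300 number 537 in FSMO and 515 in WT.

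The kept share was also counted by factor, by germ layer and by peak strength. Co-bound peaks in the domains were kept in 39.7% of 812 cases (36.3 to 43.1), peaks with Sox3 alone in 44.3% of 465 (39.9 to 48.8), peaks with Foxi2 alone in 33.3% of 33 (19.8 to 50.4) and peaks with neither factor in 53.1% of 245 (46.8 to 59.2). In the whole list the shares were 40.2%, 44.1%, 36.2% and 57.2%. In domains of both germ layers the shares of co-bound peaks, peaks with Sox3 alone and peaks with neither were 49.2% (46.0 to 52.5), 45.0% (40.4 to 49.7) and 43.0% (34.7 to 51.6), a different order. Peaks that were also P300 peaks in WT endoderm were kept in 59.7% of 449 cases (55.1 to 64.1), and peaks found in ectoderm alone in 36.3% of 1106 (33.5 to 39.1), with 59.7% and 32.8% in the whole list. The WT list was also split by −log10 p into 4 nearly equal groups. From weakest to strongest, the domains kept 28.3% (23.6 to 33.5), 28.4% (23.9 to 33.4), 42.6% (37.8 to 47.5) and 62.6% (58.3 to 66.7). In the whole list the shares were 26.3%, 36.9%, 47.2% and 65.9%. Stronger peaks were thus kept more often in both, except between the weakest groups in the domains. All but the weakest group had a lower share in the domains than in the whole list. Peaks in the domains were also stronger, with a median −log10 p of 72.2 against 62.5 in the whole list. The part of strength in the overall kept shares was not tested. Among kept peaks in the domains, the FSMO fold enrichment over input divided by the WT one had a median of 0.998, against 1.06 in the whole list.

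For endoderm P300 in the domains, there were 774 peaks in FSMO endoderm and 877 in WT endoderm, and 729 of the 963 domains had equal numbers. Many of the 729 had no peak in either list, since 515 domains had none in WT endoderm. Of the 448 domains with P300 in WT endoderm, 156 (34.8%, 30.6 to 39.3) had fewer in FSMO endoderm and 39 had more. Of 467 such endoderm-only domains, 23.3% (19.7 to 27.4) had fewer. Of the WT endoderm peaks in the domains, 679 (77.4%, 74.5 to 80.1) were kept, against 83.5% of the whole endoderm list and 89.3% (87.7 to 90.8) in endoderm-only domains. These peaks also differed in strength, with a median −log10 p of 69.9 in the domains, 73.0 in the whole list and 104 in endoderm-only domains. The part of strength in the kept shares was not tested. With lists of equal length the kept shares were 79.8% in the domains and 85.1% in the whole list. The whole list includes the peaks in the domains, and the difference in kept share was not tested. Co-binding was more common at the WT endoderm peaks in the domains than in the whole endoderm list. Of these peaks, 43.0% (39.7 to 46.3) overlapped both factors, against 20.3% of the whole endoderm list. An ectoderm P300 peak was overlapped by 50.7% (47.4 to 54.0) of them, against 19.8%. In endoderm-only domains the same shares were 22.0% and 13.5%. They are not given here for domains of both germ layers, so these values do not show whether they were particular to ectoderm-only domains.

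The 29 domains with listed genes all held ectoderm P300. FSMO ectoderm had fewer P300 peaks than WT ectoderm in 21 of them, equal numbers in 6 and more in 2, with 78 peaks in FSMO and 129 in WT. Of all 709 ectoderm-only domains with P300 in WT ectoderm, 67.6% had fewer, a share near that of the 29. In endoderm, 11 had fewer, 16 equal numbers and 2 more, with 63 peaks in FSMO and 78 in WT. Kept peaks made up 51.2% (42.6 to 59.6) of the WT ectoderm peaks in these domains, against 43.0% in all 963.

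Among epidermal genes, FSMO ectoderm had fewer peaks in 10 of 12 domains. Of the WT ectoderm peaks in these 12 domains, 53.3% (40.9 to 65.4) were kept, against 43.0% in all 963. The 12 held a median of 5 WT ectoderm P300 peaks, against 1 in all 963. The part of peak number in the count of 10 was not tested. The *tp63* domain (Chr5:103970458-104082194, UCB_Xtro_10.0) held 1 P300 peak in FSMO ectoderm against 6 in WT ectoderm, and 1 in endoderm of either kind. It was bound by 4, 2 and 6 Foxi2 peaks and by 0, 1 and 7 Sox3 peaks at stages 8, 9 and 10.5. The remaining peak, which overlaps Foxi2 already at stage 8, had a −log10 p, the peak caller's measure of significance, of 83.3 in FSMO and 183 in WT. The *grhl3* domain (Chr2:80854150-80955235) held 1 peak in FSMO ectoderm against 5 in WT ectoderm, none in endoderm, and 6 Foxi2 peaks at each stage. Its strongest co-bound peak without an FSMO counterpart (Chr2:80945906-80946612) had a −log10 p of 185 in WT, and the kept peak a fold enrichment of 16.7 in FSMO and 22.6 in WT. The *klf5* domain (Chr2:127067131-127207449), which also overlaps *pibf1*, held 1 and 6 peaks in FSMO and WT ectoderm, and all 6 WT peaks were co-bound and not kept. It had 3 endoderm P300 peaks in FSMO and 3 in WT, although no endoderm H3K27ac region lay in it.

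In other epidermal domains more of the peaks were kept. The *krt70* domain (Chr10:7549028-7612633) held 3 peaks in FSMO ectoderm and 5 in WT ectoderm, with none in endoderm, and its strongest kept peak had a fold enrichment of 12.3 in FSMO and 21.6 in WT. The *tfap2c* domain (Chr10:5946540-6006146) held 4 and 5 peaks in FSMO and WT ectoderm, and its strongest kept peak, co-bound and shared with endoderm, had 6.61 in FSMO against 21.0 in WT. The *dlx3* domain (Chr10:14530377-14694378) held 5 peaks in each, none of the WT peaks without a counterpart, and the strongest kept peak, which overlapped neither factor, had 22.9 in FSMO and 17.8 in WT. The *tfap2a* domain (Chr6:90358353-90404378) held 2 peaks in each of the 4 P300 lists, and its strongest kept peak had 27.9 in FSMO and 25.2 in WT ectoderm. These fold enrichments come from combined replicates, and no error can be put on them. The strongest kept peak of a domain was picked by its WT −log10 p, so WT values are high by choice. Over all 669 kept peaks in the domains, the FSMO fold enrichment divided by the WT one had a median of 0.998.

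**Figure D5:**
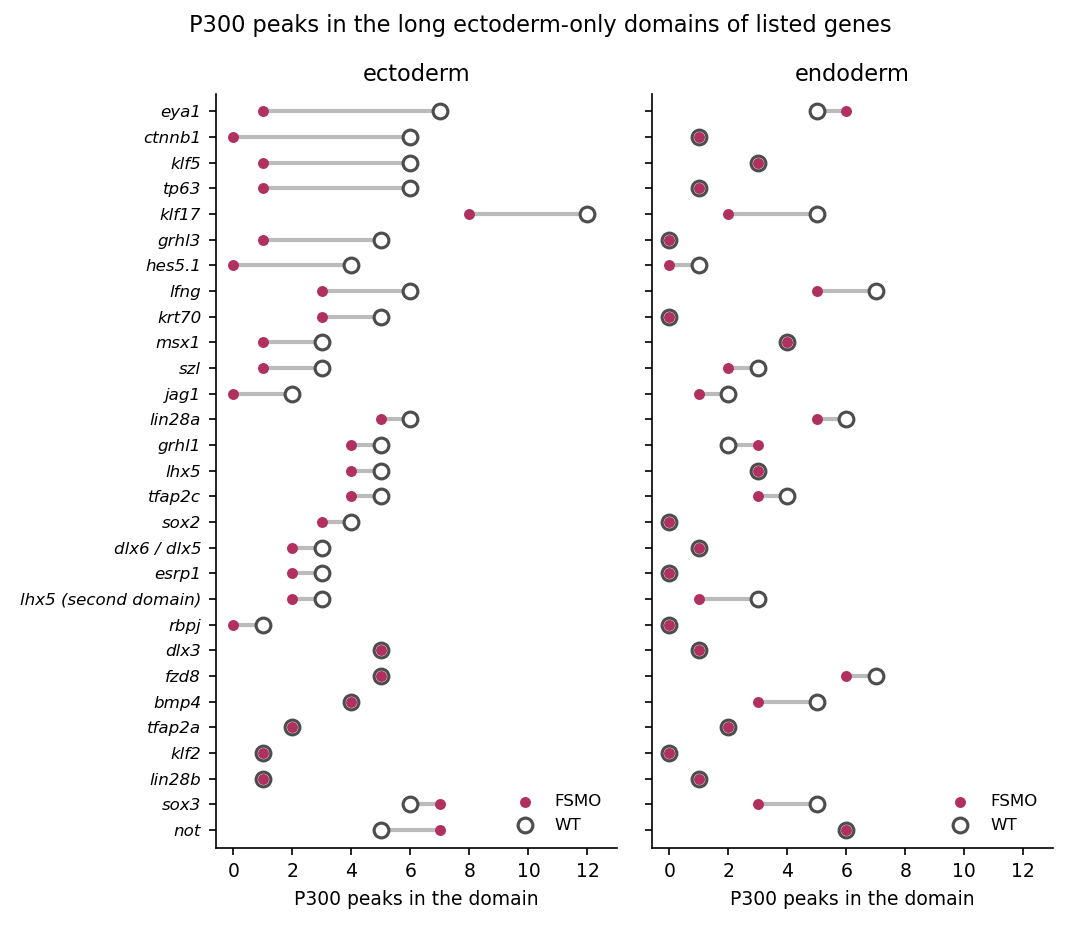
P300 peaks (horizontal axis) in each of the 29 long ectoderm-only domains that overlap listed genes, in FSMO (red dots) and WT (open circles) ectoderm on the left and endoderm on the right, ordered by the ectoderm change. In ectoderm the red dot lies left of the circle in 21 domains, with *eya1*, *ctnnb1*, *klf5* and *tp63* at the top, and right of it in the domains of *sox3* and *not*.

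Neural, placode and signalling genes showed both patterns. The *hes5.1* domain (Chr7:89985934-90046061) held no P300 peak in FSMO ectoderm against 4 in WT ectoderm, all 4 co-bound, of which the strongest had a fold enrichment of 17.7. The *eya1* domain (Chr6:120440040-120601723), around a placode coactivator gene, held 1 peak in FSMO ectoderm against 7 in WT ectoderm, but 6 in FSMO endoderm against 5 in WT endoderm. Its kept peak is a P300 peak of both germ layers and had 25.3 in FSMO and 20.6 in WT. The *ctnnb1* domain (Chr6:53267876-53366028) held none in FSMO ectoderm against 6 in WT ectoderm, with 1 in endoderm of either kind. None of the 6 was kept, 2 of them were co-bound, and the stronger co-bound peak had a fold enrichment of 20.3. By contrast, the domain of *sox3* itself (Chr8:55282293-55394854) held 7 peaks in FSMO ectoderm and 6 in WT ectoderm, and 3 in FSMO endoderm and 5 in WT endoderm. Even so, 2 of its 6 WT ectoderm peaks were not kept, both co-bound. The domain of *sox2* (Chr5:108003998-108041709) held 3 and 4 peaks in FSMO and WT ectoderm and none in endoderm. The *bmp4* domain (Chr8:94936134-95060747) kept all 4 of its ectoderm peaks, and the *fzd8* domain (Chr6:21462259-21493838) held 5 in each ectoderm list. All 3 Notch pathway domains had fewer, with 0 and 2 peaks at *jag1*, 3 and 6 at *lfng* and 0 and 1 at *rbpj* in FSMO and WT ectoderm.

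The first P300 experiment, made in WT tissue only, gave 4 ectoderm peaks in the *tp63* domain, 6 in that of *grhl3*, 6 in that of *klf5*, 4 in that of *hes5.1*, 4 in that of *eya1* and 4 in that of *ctnnb1*. In the *sox3* domain it gave 7 ectoderm and 3 endoderm peaks, the same numbers as the FSMO lists.

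The remaining domains of listed genes held between 1 and 6 WT ectoderm peaks. The *msx1* domain (Chr1:25971529-26016611) held 1 peak in FSMO ectoderm and 3 in WT ectoderm, with 4 in endoderm of either kind. The *dlx5* and *dlx6* domain (Chr6:33887082-33935129) held 2 in FSMO and 3 in WT ectoderm, and so did the *esrp1* domain (Chr6:127975061-128023894). At *szl* (Chr3:71672810-71707033) there was 1 peak in FSMO ectoderm against 3 in WT ectoderm, all 3 co-bound. Of the pair of domains at *lhx5*, the longer held 4 in FSMO and 5 in WT ectoderm and the shorter 2 in FSMO and 3 in WT ectoderm. In the longer, 3 of the 5 WT peaks were not kept, all 3 co-bound. The *klf2* domain (Chr1:112430960-112484325) held 1 co-bound peak in FSMO and WT ectoderm, with a fold enrichment of 8.43 in FSMO and 26.3 in WT. For the RNA-binding proteins of the Lin28 family, the *lin28a* domain (Chr2:77420656-77510783) held 5 in FSMO and 6 in WT ectoderm, and the *lin28b* domain (Chr5:80059933-80114051) 1 in each, at different places. The *not* domain (Chr1:16924017-16961617) held 7 in FSMO ectoderm and 5 in WT ectoderm, and 6 in endoderm of either kind, and 78.9% of its length lay under shorter endoderm H3K27ac.

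The longest domains were also those with the highest H3K27ac signal: the same 6 were first by both measures. The signal is not divided by width, and over the 963 domains it had a Spearman coefficient of 0.84 with width. The shared ranking therefore does not show denser acetylation in longer domains. The longest, at *kctd15* (Chr4:67755552-67968009), a gene known in zebrafish to restrain neural crest formation, was 212458 bp wide, ranked 17 among all ectoderm regions and held 5 P300 peaks in FSMO ectoderm and 5 in WT ectoderm. The next, around *spc24*, *keap1* and 6 further genes (Chr3:138010590-138212522), was 201933 bp wide and held 4 peaks in FSMO ectoderm and 5 in WT ectoderm. The *sp4* domain (Chr6:39286310-39481777) held 2 and 5, the *chd2* and *rgma* domain (Chr3:112503828-112692126) 2 and 8, and the *dync1i1* and *slc25a13* domain (Chr6:33446046-33611928) 1 and 2. The *klf17* domain (Chr4:91699018-91892137) was 193120 bp wide and had the most ectoderm P300 of any member, 8 peaks in FSMO ectoderm against 12 in WT ectoderm, of which 10 WT peaks were co-bound. No endoderm H3K27ac region lay in it, yet endoderm P300 gave 2 peaks in FSMO and 5 in WT. Its strongest kept peak had a fold enrichment of 12.1 in FSMO and 29.5 in WT.

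Next in number of ectoderm P300 peaks came the *tbcd* and *znf750* domain (Chr10:48144556-48237004), with 6 in FSMO ectoderm and 11 in WT ectoderm. *ZNF750* is known in human skin as a driver of terminal epidermal differentiation. The *pi4ka* and *hic2* domain (Chr1:153685791-153806015) held 5 and 8. The *smad6.2* and *zbtb7b* domain (Chr8:145283839-145336870) stood apart, since its 7 FSMO and 8 WT ectoderm peaks lay in a domain without a Foxi2 or Sox3 peak at any stage, and endoderm had none. Of the 8 WT peaks, 3 were not kept, and the strongest kept peak had a fold enrichment of 26.4 in FSMO and 21.9 in WT. The opposite case was the *nhs* domain (Chr2:94827535-94867867), with no peak in FSMO ectoderm against 6 in WT ectoderm and 2 in endoderm of either kind. It is 40333 bp wide, and the first P300 experiment gave 3 ectoderm peaks there.

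H3K27me3 of both germ layers also lay in the domains. Ectoderm H3K27me3 covered 17.7% and endoderm H3K27me3 13.8% of the summed length, with medians of 9.26% and 3.22% per domain. Over all ectoderm H3K27ac regions the values were 17.6% under ectoderm and 16.8% under endoderm H3K27me3, so the ectoderm value of the domains was near that of all regions. More ectoderm than endoderm H3K27me3 was found in 558 domains (57.9%, 54.8 to 61.0) and less in 285, and 52.1% of all long ectoderm regions had more. In endoderm-only domains the order was reversed, with 12.5% under ectoderm and 18.9% under endoderm H3K27me3. The lists differ in total length, with 171 Mb for ectoderm and 156 Mb for endoderm. The values per domain in the 2 layers had a Spearman coefficient of 0.71 over the 963 domains. Both marks come from pieces of many cells, so 2 marks in the same cells and in different cells cannot be told apart. H3K27me3 above the ROSE cutoff covered 1.13% of the domains in ectoderm and 1.40% in endoderm. Of the whole H3K27me3 length, 6.55% in ectoderm and 7.09% in endoderm was above that cutoff.

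Among the long ectoderm-only domains with listed genes, that of *tfap2c* had the most ectoderm H3K27me3. Of its length, 84.7% lay under ectoderm and 56.4% under endoderm H3K27me3. The *dlx5* and *dlx6* domain followed with 65.9% in ectoderm and 63.8% in endoderm, and the *sox2* domain with 43.0% and 45.9% in the same order. The *grhl3* domain had 0.949% in ectoderm and 0.753% in endoderm. In the *fzd8* domain the layers differed, with 25.9% in ectoderm and 79.3% in endoderm. The latter was the most endoderm H3K27me3 among the ectoderm-only domains with listed genes. Over all members, 101 domains had more than 50% of their length under ectoderm H3K27me3, and 68 of these held ectoderm P300. Wholly covered were 17 domains, of which 6 held ectoderm P300. They include the domain at *ccdc40* (Chr10:32833217-32865496) and a cluster with the linker histone gene *h1-3* and 31 tRNA genes (Chr3:135733070-135772435).

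Repeated small RNA genes lay in a few of the domains. Of 2366 annotated tRNA genes, 404 (17.1%) overlapped 24 domains, and of 614 snRNA genes, 119 (19.4%) overlapped 7. The largest array had 85 tRNA genes (Chr3:144869017-145006521). tRNA genes were also common in domains of both germ layers, at 26.5%. The 939 domains without tRNA genes gave an ectoderm P300 share of 73.8%. Of 187 miRNA genes, 20 (10.7%) overlapped 10 domains, near the 8.95% of all annotated genes. After their values were seen, the mir-200 cluster and mir-205, known in mammals as epithelial miRNAs, were singled out. The domain with *mir429*, *mir200a* and *mir200b* (Chr7:87871890-87971165) held 1 P300 peak in FSMO ectoderm and 2 in WT ectoderm, with 4 Foxi2 and 6 Sox3 peaks at stage 10.5. The *mir205a* domain (Chr2:51230082-51289857) held none in FSMO ectoderm and 2 in WT ectoderm, with 3 Foxi2 and 2 Sox3 peaks. Among the other miRNA domains, that of *mir130b* and *mir454* held more, with 4 in FSMO ectoderm and 2 in WT ectoderm. The *mir223* domain held 5 in each and the *mir93a* domain none in either, and the rest had fewer in FSMO ectoderm.

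A small set of domains had none of the profiled proteins. In 43 domains (4.47%, 3.33 to 5.96) no P300, Foxi2 or Sox3 peak of any list was found, against 2.64% of domains of both germ layers, 3.03% of endoderm-only domains and 24.3% of ectoderm regions of 15 to 30 kb. Their median width was 36088 bp and 5 of the 43 were SEs. The longest were at *fam50a* and *plxna3* (Chr8:168973-222278), 53306 bp, around *naprt* and *exosc4* (Chr6:151281427-151328975), at *il17re* (Chr4:138238940-138285864) and at *parp14.2* (Chr9:89954854-90000425). Protein-coding genes were missing from 81 domains (8.41%).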

How the data were processed

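ChIP-seq lists were analysed as deposited, 1 per group. Per the methods, the authors aligned reads with Bowtie 2 to the *X. tropicalis* genome v10.0 (the submitters' processing notes name Bowtie2 2.2.7, the methods another version), removed duplicates, called peaks with MACS2 against input DNA and combined replicates by irreproducible discovery rate. For groups of 1 sample, this last step is not given in the sources used here. The 12 peak lists hold the authors' fold enrichment (a ratio of ChIP over input), the deposited −log10 p, a deposited scaled score that was not used, and a summit. The 4 histone tables were made by the authors with ROSE. Those for H3K27ac hold a deposited signal on a scale set by the authors, and those for H3K27me3 a deposited rank, given as a score. Read depth is not stated. The endoderm H3K27ac table heads its signal column with the ectoderm library, but over 234 regions with near-identical ends in both tables only 26.1% of signals lay within 0.1 log2, so the columns differ. The extraction protocol names an antibody against VegT for every sample, and sample titles were followed.

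Python 3.11.15 with pandas 2.3.3, numpy 2.4.6 and SciPy 1.17.1 counted overlaps of 1 bp or more, after tests on simulated intervals. Percent shares have Wilson 95% intervals and no test was run, since the authors combined replicates. Members, gene lists and rules were chosen with earlier results of these data known. The gene table (UCB_Xtro_10.0, matched by symbol, 125 of 127 listed genes, 1 of them by a synonym) was used without strand, so a gene was placed by overlap of its body and not by its start as planned. The rule for naming took the 6 longest domains, the 6 with the highest signal, the 6 with the most WT ectoderm P300 peaks, the 6 with the most not kept, the 4 longest without a peak, the 4 with the most H3K27me3 (first in table order among 17 tied at 100%) and every domain with a listed gene, 46 in all, of which not all are reported here. Motifs and sequences were not analysed here. Alternatives were other widths and exclusion rules, stricter peaks, summits, the first P300 experiment, lists of equal length and 50% reciprocal overlap.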

Additional observations from a re-analysis of the deposited data

Results flagged for a closer look

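In 3 of the 29 domains with listed genes, P300 counts moved in opposite directions in the germ layers of FSMO embryos relative to WT embryos. Each group has 1 list, and the difference was not tested.

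In the *eya1* domain, ectoderm had 1 P300 peak in FSMO and 7 in WT, while endoderm had 6 in FSMO and 5 in WT. The ectoderm change minus the endoderm change was -7 peaks. In the *taf1b* and *grhl1* domain, ectoderm had 4 in FSMO and 5 in WT and endoderm 3 in FSMO and 2 in WT, a difference of -2 peaks. In the *sox3* domain, ectoderm had 7 in FSMO and 6 in WT and endoderm 3 in FSMO and 5 in WT, a difference of 3 peaks. Of these 6 WT ectoderm peaks, 2 were not kept. The first P300 experiment, in WT tissue, gave 4 ectoderm and 5 endoderm peaks in the *eya1* domain, 2 and 2 in that of *grhl1* and 7 and 3 in that of *sox3*. In the *sox3* domain these equal the FSMO counts, and in the *grhl1* domain the ectoderm count is below the FSMO count. The directions at *sox3* and *grhl1* thus depend on which WT list is used.

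Among all 963 long ectoderm-only domains, 38 had fewer P300 peaks in FSMO ectoderm and more in FSMO endoderm, 13 had the reverse, 106 had fewer in both layers and 10 had more in both.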

How the results depend on the processing

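Of 84 alternative values, 47 stayed inside the Wilson interval of the reported value (within 1.5 times for the count of domains) and 37 did not. The percent of length under H3K27me3 has no counting interval of its own and was held to the width of one for a share of 963 domains. At a 20 kb minimum, the share of domains with ectoderm P300 was 58.3%, with more ectoderm than endoderm P300 42.1%, with Foxi2 49.7%, with Sox3 75.7% and with a co-bound P300 peak 37.6%, and 39.8% of ectoderm P300 peaks were kept. At 40 kb these domain shares were 83.1%, 54.1%, 72.7%, 91.5% and 62.6%. Where endoderm H3K27ac of any length excluded a domain, 97 domains were left, with P300 in 81.4%, more ectoderm P300 in 72.2%, Sox3 in 92.8%, 36.3% of ectoderm peaks kept, and 13.6% of length under ectoderm and 9.22% under endoderm H3K27me3. With the stronger 50% of each peak list, P300 was in 56.3%, more ectoderm P300 in 41.7%, Foxi2 in 44.8%, Sox3 in 73.0% and co-bound peaks in 33.4% of domains, with 38.8% of ectoderm peaks (42.7% of the whole list) and 82.8% of endoderm peaks (87.6%) kept. Requiring 50% reciprocal overlap gave 39.3% kept in ectoderm (whole list 40.5%), 74.0% in endoderm (80.4%) and co-bound peaks in 47.6% of domains. Lists of equal length gave 63.9% of domains with more ectoderm P300 and 49.6% of ectoderm peaks kept (52.4%). With H3K27me3 regions above the ROSE cutoff only, ectoderm H3K27me3 covered 1.13% and endoderm 1.40%, so the order of the layers turned.

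Among choices made after seeing the data, leaving out domains with tRNA genes moved no value beyond its interval, and keeping only domains with at least 25% of their length in H3K27ac peaks gave 89.4% with P300, 60.8% with more ectoderm P300, 74.5% with Foxi2, 95.5% with Sox3 and 64.7% with co-bound peaks. Genes by start were not run, since strand was not used. No paired analysis was possible because each group has 1 list with replicates already combined, and for the same reason no replicate could be left out.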
